A study of Canis lupus familiaris with 10 samples.

Results

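Markers of T lymphocytes and markers shared by leukocytes were examined in retinas of dogs with glaucoma and of healthy dogs. The T cell markers were CD2, CD3D, CD3E, CD4 and CD8A, and the pan-leukocyte markers were PTPRC, CD48, CD53, CORO1A and LCP1. Every probe set that the array annotation assigned to exactly 1 of these 10 gene symbols was taken, whatever its level. This gave 22 of the 42924 probe sets of the array, 10 for T cell markers and 12 for pan-leukocyte markers. The 10 genes were among 15115 with a symbol of their own. Probe sets of a gene are numbered from the highest to the lowest mean level, and the plots give their array identifiers.

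Neural retina was collected from 5 dogs with primary glaucoma and 5 healthy dogs, and the RNA of each dog was hybridized to its own Affymetrix Canine genome 2.0 array. The glaucoma group consisted of 2 Shiba Inus labelled 5 and 14 years old, 2 Basset Hounds labelled 5 and 7 years old and a Dalmatian labelled 9 years old, and values per dog are given in this order. These dogs were patients with closed irido-corneal angles that had received topical latanoprost and brinzolomide, 2 drugs that lower the intraocular pressure, but no ocular surgery. Their eyes were enucleated to relieve pain. The healthy group consisted of 5 Beagles aged 4 years with open angles that were euthanized for other reasons. No breed occurred in both groups and every glaucomatous dog was older than every healthy dog. Glaucomatous eyes were enucleated from patients, whereas healthy eyes came from euthanized dogs. Disease, breed, age, treatment and the way the tissue was obtained therefore cannot be told apart.

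T lymphocytes recognize peptides held by major histocompatibility complex (MHC) molecules through a receptor that signals through the CD3 chains, and the coreceptors CD4 and CD8 bind MHC class II and class I molecules, respectively. The pan-leukocyte markers are carried by most cells of the hematopoietic lineage, including lymphocytes, monocytes, granulocytes and microglia, the resident macrophages of the retina. A healthy retina lies behind a blood-retina barrier and holds microglia but few lymphocytes.

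Values are log2 levels of RMA intensity, a scale on which 1 unit is a 2-fold change. Groups were compared with limma over all 42924 probe sets, and differences with an adjusted p under 0.05 (Benjamini-Hochberg over all probe sets) are named as called. Of all probe sets, 3.69% were called higher and 4.62% lower in glaucoma, and in 4.27% every glaucomatous retina lay above every healthy one. With each gene represented by its probe set of the highest mean, 4.53% of 15115 genes were called higher and 4.91% lower. The median difference over all probe sets was 0.02.

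Median intensity per array ranged from 77.1 to 80.7. Arrays of healthy retinas correlated with each other at r of 0.982 to 0.993 over all probe sets, and those of 4 glaucomatous retinas at 0.971 to 0.986. The array of the 5-year-old Shiba Inu stood apart, with r of 0.946 to 0.966 to the other glaucomatous retinas. In this retina the median of 14 rod markers was at -3.47 relative to the healthy mean and that of 13 retinal pigment epithelium markers was at 2.66. The pigment epithelium median of healthy Beagle 4 was raised by 1.50 as well. Control transcripts, read at both ends as a sign of RNA integrity, had a log2 3′/5′ ratio of 0.94 ± 0.14 (SD) in glaucoma and 1.19 ± 0.22 in healthy retinas (n = 5 each, p = 0.0556 by an exact two-sided permutation test). The photoreceptor gene SAG was at 13.21 ± 1.52 and 14.10 ± 0.17 in the respective groups, and RLBP1, expressed in Muller glia and pigment epithelium, at 12.16 ± 0.82 and 11.81 ± 0.74.

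Most of the pan-leukocyte probe sets and part of the T cell probe sets showed elevated expression in the glaucomatous retina. Of the 12 pan-leukocyte probe sets, 9 were called higher and 0 lower, against 3.69% and 4.62% of all probe sets, with a median difference of 1.22 and a range from 0.04 to 2.27. Of the 10 T cell probe sets, 5 were called higher and 0 lower, with a median difference of 0.50 and a range from -0.22 to 1.09. The 5 T cell calls fell on CD2, CD3D and CD3E, whereas neither CD4 nor CD8A had a called probe set. All 5 pan-leukocyte genes had at least 1 called probe set. At least a 2-fold elevation was called in 8 pan-leukocyte and 2 T cell probe sets, against 1.31% of all probe sets. The difference between the classes was not tested. In RNA of neural retina, a mix of cell types, more cells of a type and more RNA per cell cannot be told apart.

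The number of T cell calls changed with single dogs and with the model. With each dog left out in turn, 2 to 5 T cell and 8 or 9 pan-leukocyte probe sets were called higher. The T cell count stayed at 5 without the 14-year-old Shiba Inu, was 3 without Beagle 1, the Dalmatian, the younger Shiba Inu or the younger Basset Hound, and was 2 without any of the others. Without the array of the 5-year-old Shiba Inu, 3 T cell and 9 pan-leukocyte probe sets were called higher, with medians of 0.52 and 1.12. With the 3′/5′ ratio as a covariate, 0 T cell and 4 pan-leukocyte probe sets were called, with medians of 0.41 and 1.14. With the ratio of a second set of control transcripts, a covariate chosen after seeing the data, 5 T cell and 9 pan-leukocyte probe sets were called. The medians were then 0.49 and 1.21. The part of RNA quality in these differences was not tested beyond these covariates.

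**Figure D1:**
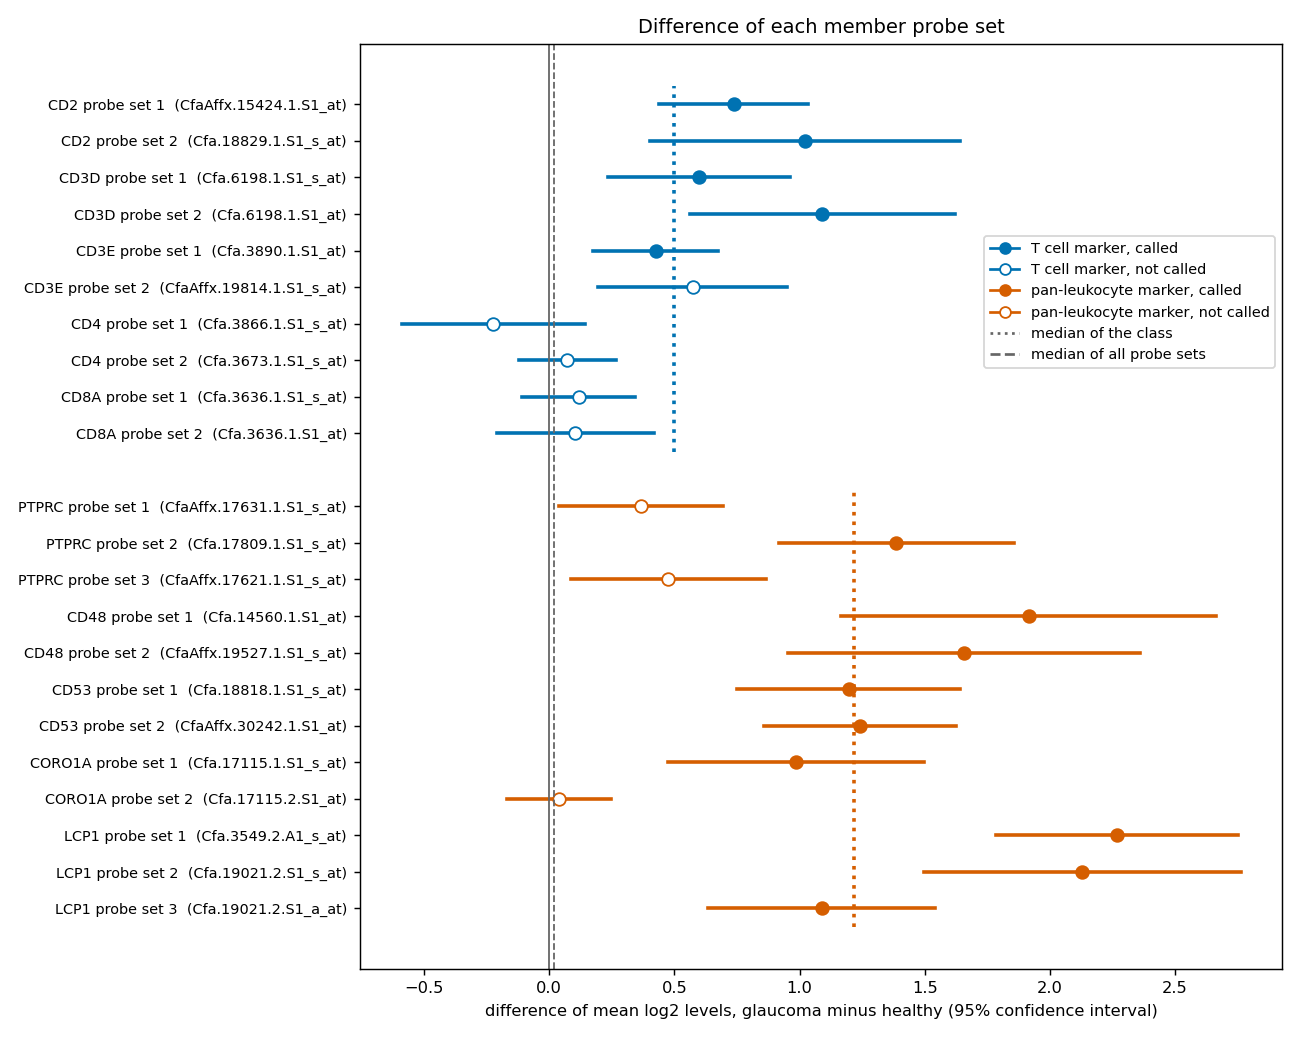
Difference of the mean log2 level between 5 glaucomatous and 5 healthy retinas for each of the 22 probe sets (points, with the 95% confidence interval of the limma fit as lines, and filled where called). Dotted lines mark the class medians of 0.50 for T cell and 1.22 for pan-leukocyte markers, and the dashed line the median of 0.02 over all probe sets; the intervals of CD4 and CD8A span 0.

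CD2 is an adhesion and costimulatory receptor of T and natural killer cells. Its probe set 1 measured 7.16, 7.02, 6.92, 7.38 and 7.54 in the glaucomatous retinas and 6.57, 6.53, 6.68, 6.18 and 6.38 in the 5 healthy Beagles. All glaucomatous retinas lay above all healthy ones, with a difference of 0.74 ± 0.14 (SE, adjusted p = 0.00668), or 1.67-fold. CD2 probe set 2 measured 6.80, 6.00, 6.87, 6.84 and 7.80 in glaucoma against 6.05, 6.28, 5.93, 5.46 and 5.49 in healthy retinas. Here the 14-year-old Shiba Inu fell within the healthy range and the Dalmatian stood highest, and the difference was 1.02 ± 0.28 (adjusted p = 0.0477).

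CD3D and CD3E are the delta and epsilon chains of the CD3 complex, which carries the signal of the T cell receptor into the cell. CD3D probe set 1 measured 6.00, 5.42, 5.80, 5.67 and 6.50 in glaucoma and 5.25, 5.31, 5.24, 5.34 and 5.26 in healthy retinas. The healthy values lay within a range of 0.10, below all glaucomatous values, and the difference was 0.60 ± 0.17 (adjusted p = 0.0487). CD3D probe set 2 measured 5.42, 4.09, 5.31, 5.19 and 5.70 in glaucoma and 4.12, 4.00, 4.02, 4.05 and 4.07 in healthy retinas. It was near the healthy level in the 14-year-old Shiba Inu and above it in the other 4 glaucomatous retinas, with a difference of 1.09 ± 0.24 (adjusted p = 0.0174). No dog reached a log2 level of 7 with either CD3D probe set, and whether the healthy levels lay above the background of the array was not tested.

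CD3E probe set 1 measured 6.87, 6.84, 6.95, 7.08 and 7.37 in glaucoma and 6.76, 6.47, 6.68, 6.47 and 6.58 in healthy retinas. The groups did not overlap, and the difference of 0.42 ± 0.11 passed the test (adjusted p = 0.0411). With probe set 2 the CD3E levels were 5.48, 5.48, 5.16, 5.52 and 6.19 in glaucoma and 4.96, 5.11, 5.25, 4.79 and 4.84 in healthy retinas. The 5-year-old Basset Hound lay within the healthy range, and the difference of 0.57 ± 0.17, although larger than that of the first probe set, did not pass (adjusted p = 0.0662).

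The calls of 3 of these probe sets were near the threshold (adjusted p = 0.0411 to 0.0487 by limma) and were lost when most single dogs were left out. CD2 probe set 2 lost its call when any dog other than the 14-year-old Shiba Inu was left out (adjusted p = 0.0581 to 0.12). For CD3D probe set 1 this held for the 5-year-old Shiba Inu, either Basset Hound or any Beagle (adjusted p = 0.0574 to 0.105). CD3E probe set 1 lost its call without either Basset Hound, the Dalmatian or any of Beagles 2 to 5 (adjusted p = 0.0503 to 0.112). CD2 probe set 1 and CD3D probe set 2 kept their calls with each dog left out in turn.

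CD4 is the coreceptor of helper T cells and is also found on canine neutrophils and on some macrophages. CD4 probe set 1 measured 6.26, 7.13, 6.95, 6.93 and 7.32 in glaucoma and 7.03, 7.24, 7.22, 7.08 and 7.14 in healthy retinas. The glaucomatous levels spread to both sides of the healthy ones, lowest in the 5-year-old Shiba Inu and highest in the Dalmatian. The difference was -0.22 ± 0.17 (adjusted p = 0.495; 95% confidence interval, -0.59 to 0.14). CD4 probe set 2 ranged from 5.80 to 6.07 in glaucoma and from 5.72 to 6.00 in healthy retinas, with a difference of 0.07 ± 0.09 (adjusted p = 0.718; interval, -0.12 to 0.26).

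CD8A, a chain of the coreceptor of cytotoxic T cells, did not pass with either probe set. Probe set 1 measured 5.47, 5.72, 5.70, 5.81 and 5.71 in glaucoma and 5.65, 5.53, 5.81, 5.34 and 5.50 in healthy retinas, and the highest of all values was that of Beagle 3. The difference was 0.12 ± 0.10 (adjusted p = 0.58; interval, -0.11 to 0.34). Probe set 2 ranged from 3.57 to 4.19 in glaucoma and from 3.66 to 4.17 in healthy retinas, with a difference of 0.10 ± 0.14 (adjusted p = 0.75; interval, -0.21 to 0.42).

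PTPRC encodes CD45, the tyrosine phosphatase on the surface of nearly all leukocytes. Its 3 probe sets did not give the same picture. PTPRC probe set 2 measured 7.03, 5.64, 6.08, 6.27 and 6.69 in glaucoma and 4.89, 5.01, 5.02, 4.86 and 4.99 in healthy retinas. The groups were apart, and the difference was 1.39 ± 0.21 (adjusted p = 0.00257), or 2.61-fold. PTPRC probe set 3 measured 5.94, 4.79, 4.99, 5.19 and 5.17 in glaucoma and 4.70, 4.77, 4.73, 4.77 and 4.73 in healthy retinas. Here the 5-year-old Shiba Inu stood above the rest, and although the groups did not overlap the difference of 0.48 ± 0.18 did not pass (adjusted p = 0.134). PTPRC probe set 1 ranged from 5.76 to 6.30 in glaucoma and from 5.32 to 6.04 in healthy retinas, with a difference of 0.37 ± 0.15 (adjusted p = 0.174).

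CD48 is a surface protein of the SLAM family that binds CD2 and CD244. Probe set 1 measured 8.21, 6.54, 7.59, 7.93 and 8.76 in glaucoma and 6.04, 6.23, 6.06, 5.67 and 5.45 in healthy retinas. Probe set 2 measured 7.05, 5.76, 6.60, 7.25 and 7.98 in glaucoma and 5.25, 5.49, 5.27, 5.25 and 5.10 in healthy retinas. Both probe sets separated the groups and ranked the dogs similarly, the Dalmatian highest and the 14-year-old Shiba Inu lowest of the glaucomatous retinas. The differences were 1.92 ± 0.34 (adjusted p = 0.00572) and 1.66 ± 0.32 (adjusted p = 0.00872), or 3.77-fold and 3.16-fold. The spread between the glaucomatous dogs was the widest among the 22 probe sets, 2.22 log2 units with either probe set.

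CD53 is a tetraspanin, a membrane organizer found on leukocytes. CD53 probe set 1 gave levels of 8.46, 7.39, 7.83, 8.33 and 8.45 in glaucoma and 6.95, 7.13, 7.01, 6.61 and 6.77 in healthy retinas. CD53 probe set 2 gave 7.44, 6.50, 6.82, 7.25 and 7.22 in glaucoma and 5.84, 6.12, 5.54, 5.72 and 5.80 in healthy retinas. Neither probe set showed an overlap, and the differences were close to each other at 1.20 ± 0.20 (adjusted p = 0.00431) and 1.24 ± 0.18 (adjusted p = 0.00143).

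CORO1A, or coronin 1A, and LCP1, or L-plastin, are actin-binding proteins of hematopoietic cells. CORO1A probe set 1 measured 8.16, 7.14, 7.72, 7.97 and 8.63 in glaucoma and 7.28, 6.91, 7.02, 6.78 and 6.72 in healthy retinas. The 14-year-old Shiba Inu lay below Beagle 1, and the other glaucomatous retinas lay above all healthy ones. The difference was 0.99 ± 0.23 (adjusted p = 0.0239), and this call was lost without the 7-year-old Basset Hound, Beagle 2, Beagle 4 or Beagle 5 (adjusted p = 0.0502 to 0.0655). CORO1A probe set 2 ranged from 6.08 to 6.31 in glaucoma and from 5.93 to 6.29 in healthy retinas, with a difference of 0.04 ± 0.09 (adjusted p = 0.869; interval, -0.17 to 0.25).

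LCP1 had the largest elevation of the 10 genes. LCP1 probe set 1 measured 9.31, 8.01, 8.35, 8.89 and 9.13 in glaucoma and 6.61, 6.54, 6.57, 6.27 and 6.37 in healthy retinas. Every glaucomatous retina was more than 1 log2 unit above every healthy one, and the difference was 2.27 ± 0.22 (adjusted p = 1.81e-04), or 4.82-fold. LCP1 probe set 2 measured 7.76, 6.05, 6.71, 7.59 and 7.56 in glaucoma and 4.89, 5.14, 5.12, 5.07 and 4.80 in healthy retinas. LCP1 probe set 3 measured 6.69, 5.44, 5.77, 6.43 and 6.29 in glaucoma and 4.90, 4.99, 5.20, 5.00 and 5.09 in healthy retinas. The groups were again apart, with differences of 2.13 ± 0.29 (adjusted p = 0.00113) and 1.09 ± 0.21 (adjusted p = 0.00788). With all 3 probe sets the 5-year-old Shiba Inu was the highest of 10 dogs and the 14-year-old Shiba Inu the lowest of the glaucomatous ones.

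**Figure D2:**
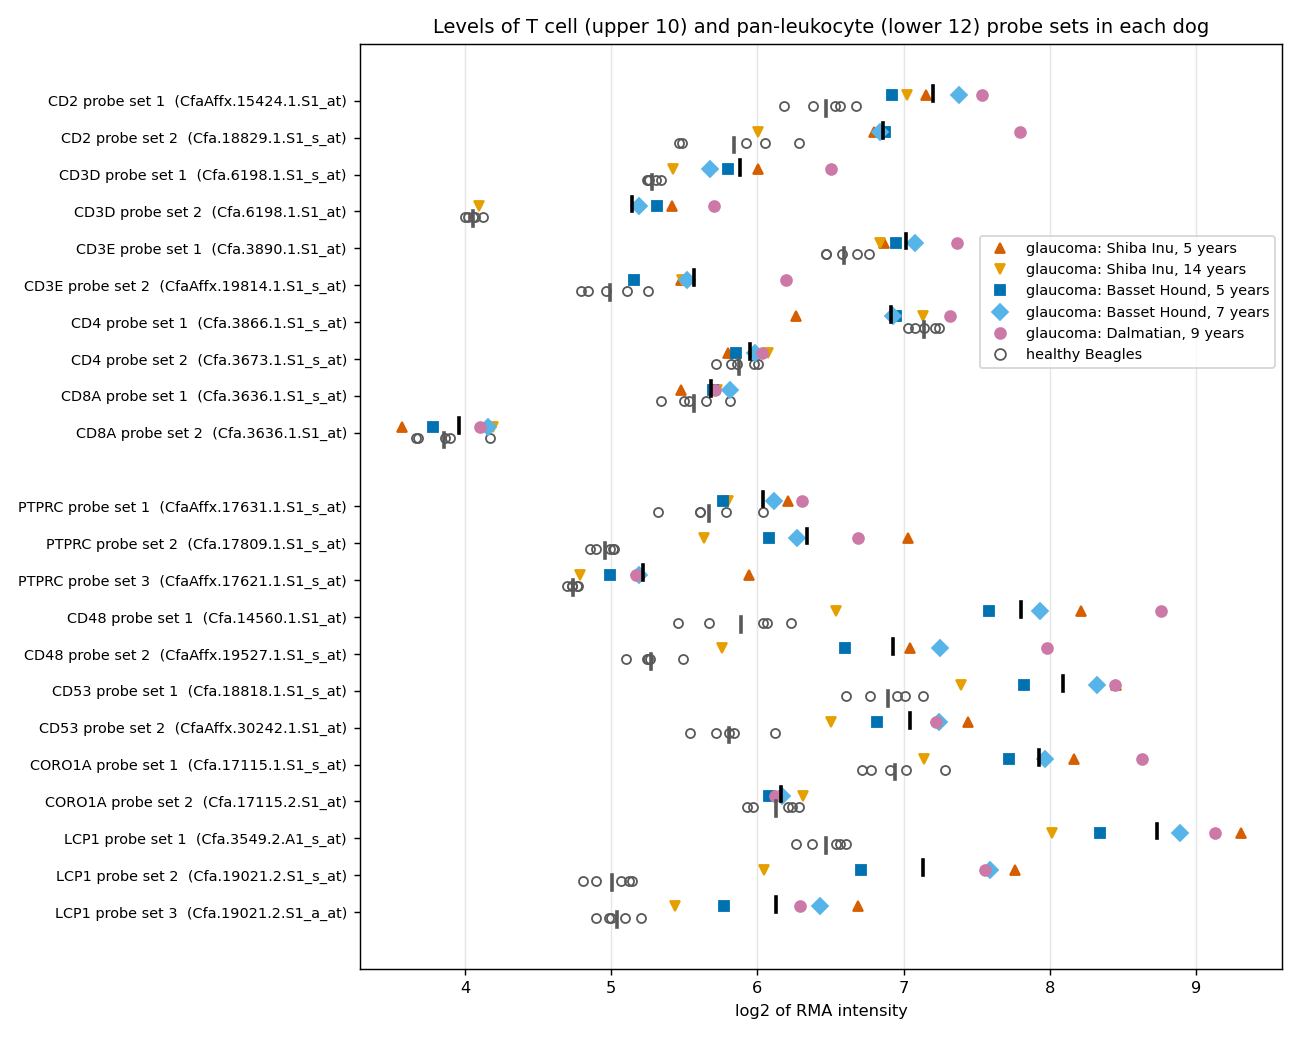
Log2 level of each of the 22 probe sets in each dog, with coloured symbols for the 5 glaucomatous retinas, open circles for the 5 healthy Beagles and vertical ticks for the group means (black for glaucoma, grey for healthy). The Dalmatian lies highest in all 6 probe sets of CD2, CD3D and CD3E. In CD4 probe set 1 the 5-year-old Shiba Inu and both Basset Hounds lie below all Beagles and the Dalmatian lies above them. In CD4 probe set 2 and in CD8A the ranges of the groups overlap.

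Of the 22 probe sets, 12 had every glaucomatous value above every healthy value, 3 of the T cell and 9 of the pan-leukocyte class, against 4.27% of all probe sets. The 14 called probe sets included 11 of these 12, the other being PTPRC probe set 3. Such full separation fixes the p of the two-sided exact permutation test over dogs at 0.00794, the smallest that 5 against 5 samples can give. For these 12 the test therefore restates the separation and adds no further evidence. By the same test the 14 called probe sets ranged from 0.00794 to 0.0238. A log2 level above 7 in at least 2 samples, the threshold for an expressed gene in the methods of the study, was met by 10 of the 22 probe sets. These were 3 of the T cell class, 1 each of CD2, CD3E and CD4, and 7 of the pan-leukocyte class, for CD48, CD53, CORO1A and LCP1. CD3D, CD8A and PTPRC did not meet it with any probe set. Of these, 2 of the 3 T cell probe sets (CD2 and CD3E) and 5 of the 7 pan-leukocyte probe sets (both of CD48, CD53 probe set 2 and LCP1 probe sets 1 and 2) met it only through glaucomatous retinas, while CD4 probe set 1 met it in all 5 healthy retinas.

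Probe sets of the same gene differed in how far they moved. The gap between the differences was largest for LCP1 (1.18), PTPRC (1.02) and CORO1A (0.95) and smallest for CD8A (0.01) and CD53 (0.05). When the probe sets of each gene were averaged before the fit, CD2 (0.88 ± 0.20), CD3D (0.84 ± 0.20), CD3E (0.50 ± 0.13) and all 5 pan-leukocyte genes passed, with PTPRC at 0.74 ± 0.16 and CORO1A at 0.51 ± 0.13. CD4 (-0.08 ± 0.12) and CD8A (0.11 ± 0.12) did not.

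The glaucomatous dogs were ranked only in part alike by the 2 classes. The Dalmatian was the highest of 10 dogs in 7 of 10 T cell probe sets, among them all 6 of CD2, CD3D and CD3E. The 5-year-old Shiba Inu was the highest in 7 of 12 pan-leukocyte probe sets, those of LCP1, CD53 and 2 of PTPRC, and the highest in 0 T cell probe sets. The 14-year-old Shiba Inu was the lowest glaucomatous dog in 10 of 12 pan-leukocyte probe sets. Expressed as the median deviation from the healthy mean, the T cell class was at 0.38, 0.18, 0.26, 0.44 and 0.92 in the 5 glaucomatous dogs, and the pan-leukocyte class at 1.65, 0.49, 0.97, 1.41 and 1.62. In both classes this median was lowest in the 14-year-old Shiba Inu and next lowest in the 5-year-old Basset Hound. Healthy dogs ranged from -0.15 to 0.11 over both classes. Without the Dalmatian the T cell median difference was 0.38 and 3 T cell probe sets were called. The SD over glaucomatous dogs was larger than that over healthy dogs in 18 of the 22 probe sets. The part that breed plays in these ranks was not tested.

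Other genes of the same cells were examined as lists, with 1 probe set per gene. None of 36 other markers of T and natural killer cells was called in either direction with limma, and 4 were higher at an unadjusted p under 0.05, where 12.3% of all genes were higher and 11.9% lower. Their median difference was 0.08. Only 2 of the 36, CD27 and NKG7, met the log2 level above 7 in at least 2 samples. Whether the others lay above the background of the array was not tested, so that their lack of calls is not evidence of unchanged expression. The smallest adjusted p values were those of the costimulatory receptors CD27 (0.31 ± 0.12, adjusted p = 0.131) and CD28 (0.26 ± 0.10, adjusted p = 0.156), the interleukin 7 receptor IL7R (0.48 ± 0.20, adjusted p = 0.173) and the granule protein gene NKG7 (0.29 ± 0.13, adjusted p = 0.209). The largest differences were those of the chemokine CCL5 (0.85 ± 0.46, adjusted p = 0.319) and granzyme GZMB (0.62 ± 0.38, adjusted p = 0.387), which did not pass either. Among alternatives to this fit, at most 2 of the 36 were called.

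Of 27 genes that act downstream of the T cell receptor or CD2, 3 were called higher and 0 lower, with a median difference of 0.31. These were the phosphatase PTPN6 (0.87 ± 0.16, adjusted p = 0.00744), the exchange factor VAV1 (0.64 ± 0.13, adjusted p = 0.0106) and the CD2 binding protein CD2BP2 (0.42 ± 0.09, adjusted p = 0.0152). PTPN6 and VAV1 are used by other leukocytes as well. The mean level of CD2BP2 was already 8.53 in healthy retinas, and whether its signal came from T cells was not tested. The adaptors PAG1 (0.38 ± 0.11, adjusted p = 0.0613) and LCP2 (0.62 ± 0.30, adjusted p = 0.269) and the exchange factor RASGRP1 (0.45 ± 0.21, adjusted p = 0.239) did not pass, nor did the kinase LCK (0.37 ± 0.15, adjusted p = 0.167).

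The molecules that the T cell coreceptors, CD2 and CD48 bind, together with their relatives, were called higher for 9 of 16 genes and lower for 0, CD48 itself included. The median difference was 0.79. The called genes included the MHC class I genes DLA88 (2.32 ± 0.21, adjusted p = 1.13e-04) and DLA-64 (2.53 ± 0.24, adjusted p = 1.65e-04), the class II gene DLA-DRA (2.73 ± 0.26, adjusted p = 1.46e-04) and the class II invariant chain CD74 (2.80 ± 0.27, adjusted p = 1.61e-04). Class I genes are similar in sequence, and their probe sets may not separate them. The CD4 ligand IL16 (0.40 ± 0.11, adjusted p = 0.0563) and the CD48 relative CD84 (0.26 ± 0.11, adjusted p = 0.187) did not pass, and CD244, the receptor of CD48, was at -0.01 ± 0.17 (adjusted p = 0.991).

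Of 19 B and plasma cell genes, 4 were called higher and 1 lower, with a median difference of 0.09. The higher ones were FCRLA (3.20 ± 0.19, adjusted p = 1.89e-05), the signalling proteins BTK (1.11 ± 0.15, adjusted p = 0.00126) and BLNK (0.99 ± 0.15, adjusted p = 0.0024), and LOC607467 (1.14 ± 0.30, adjusted p = 0.036). The immunoglobulin joining chain JCHAIN (-0.88 ± 0.22, adjusted p = 0.0304) was lower, a call lost without the 14-year-old Shiba Inu, the Dalmatian or any of Beagles 2 to 5, whereas the transcription factor XBP1 (0.33 ± 0.12, adjusted p = 0.12) and the adaptor BANK1 (-0.16 ± 0.22, adjusted p = 0.754) did not pass. BTK and BLNK are also expressed by macrophages. The B cell receptor chains CD79A and CD79B and the surface marker MS4A1 were at 0.09 ± 0.08, 0.00 ± 0.11 and 0.03 ± 0.11 and did not pass. LOC607467, CD79A, CD79B, MS4A1, LCK and CD244 were named after their values had been seen.

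Of 34 other genes expressed across leukocytes, 11 were called higher and 1 lower, with a median difference of 0.35. The lysosomal protein LAPTM5 (2.08 ± 0.20, adjusted p = 1.79e-04), the selectin ligand SELPLG (1.28 ± 0.17, adjusted p = 9.24e-04) and GMFG (1.37 ± 0.21, adjusted p = 0.00218) were elevated. The kinase LYN (0.94 ± 0.34, adjusted p = 0.13) and the GTPase RAC2 (0.70 ± 0.23, adjusted p = 0.0945) did not pass, and SAMSN1, an adaptor named after its value had been seen, was lower (-1.70 ± 0.33, adjusted p = 0.00888). Among 13 relatives and partners of coronin 1A and L-plastin, the actin nucleation subunit ARPC1B (1.45 ± 0.27, adjusted p = 0.00779) was called higher. None of the 7 other coronins and plastins was called by limma, and their differences ranged from -0.43 for PLS1 to 0.34 for CORO1C. Of 15 tetraspanins other than CD53, 2 were called higher, CD81 (0.74 ± 0.12, adjusted p = 0.00412) and the leukocyte tetraspanin CD37 (1.30 ± 0.24, adjusted p = 0.00684), which also counts among the 11 above. TSPAN8 (1.50 ± 0.56, adjusted p = 0.139) and CD63 (0.62 ± 0.21, adjusted p = 0.0968) did not pass.

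Macrophages and microglia carry the pan-leukocyte markers too, and 19 of 25 markers of these cells were called higher and 0 lower, with a median difference of 1.34. Complement C1QC (3.44 ± 0.28, adjusted p = 8.22e-05) and C1QA (2.23 ± 0.24, adjusted p = 2.89e-04), cathepsin S or CTSS (2.37 ± 0.23, adjusted p = 1.62e-04) and the growth factor receptor CSF1R (3.26 ± 0.33, adjusted p = 2.16e-04) were elevated, whereas the scavenger receptors MARCO (1.61 ± 0.48, adjusted p = 0.0661) and MRC1 (0.48 ± 0.21, adjusted p = 0.205) did not pass. The other markers without a call, named after their values had been seen, were TMEM119 (0.14 ± 0.09, adjusted p = 0.408), P2RY13 (0.18 ± 0.12, adjusted p = 0.461), ITGAM (0.13 ± 0.14, adjusted p = 0.65) and P2RY12 (-0.28 ± 0.30, adjusted p = 0.659). By dog, the median deviation of the 25 markers was 2.11, 0.81, 1.09, 1.15 and 1.54, highest in the 5-year-old Shiba Inu as for the pan-leukocyte class. The summed intensity of the 25 genes was 12407 to 27238 in glaucoma and 3289 to 4809 in healthy retinas. The corresponding sums were 716 to 1817 and 375 to 498 for the 5 pan-leukocyte genes, 445 to 653 and 377 to 448 for the 5 T cell genes, and 1775 to 2869 and 1619 to 1971 for the 36 other T and natural killer cell markers. Only the last pair of these and the T cell pair overlapped between the groups. Sums of different lists cannot be compared, since they depend on the number of genes and on the brightest probe sets. With the 3′/5′ ratio as a covariate, 12 of the 25 macrophage markers, 5 of the 34 other leukocyte genes and 0 of the 27 genes of T cell receptor signalling were called. The part of macrophages and microglia in the pan-leukocyte differences was not tested.

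**Figure D3:**
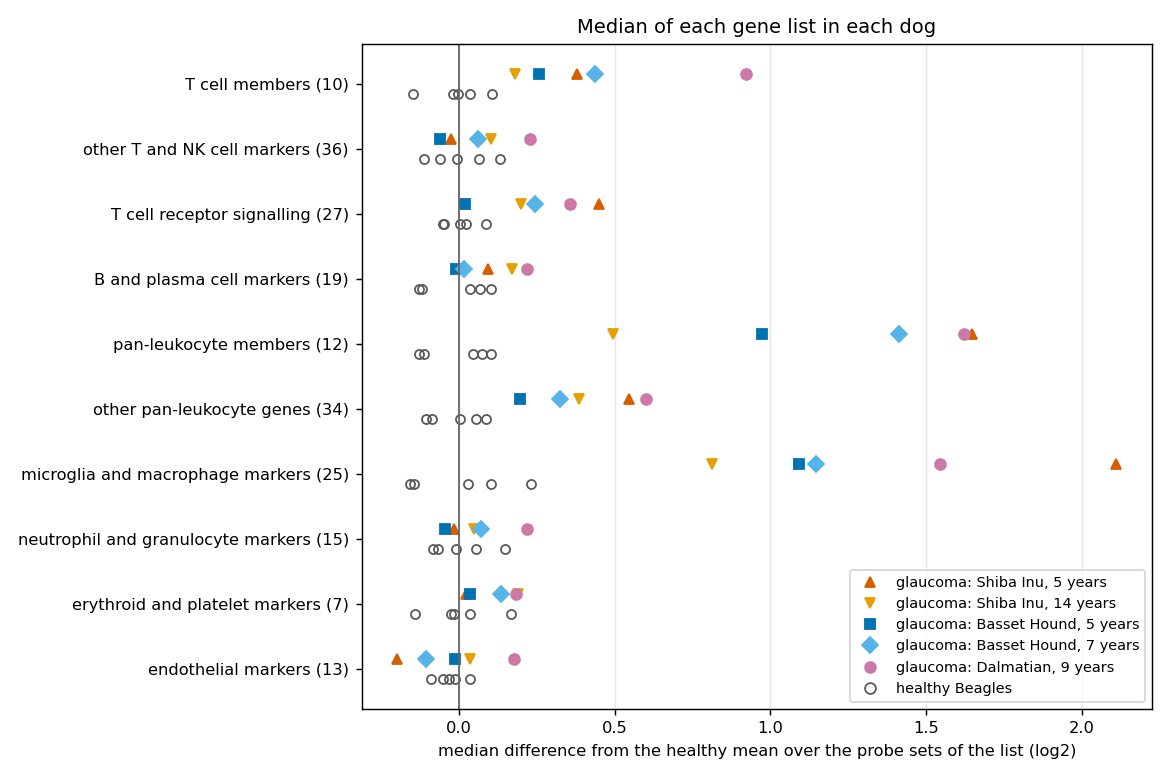
Median deviation from the healthy mean, in log2 units, over the probe sets or genes of each list (number in parentheses) for each of the 5 glaucomatous dogs (coloured symbols) and the 5 healthy Beagles (open circles). In the T cell members (0.18 to 0.92), the pan-leukocyte members (0.49 to 1.65), the other pan-leukocyte genes (0.20 to 0.60) and the markers of microglia and macrophages (0.81 to 2.11) all glaucomatous dogs lie above all healthy dogs, while the other T and natural killer cell markers lie between -0.06 and 0.23.

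Markers of blood were examined beside the leukocyte markers. Of 15 neutrophil and granulocyte genes, 0 were called by limma, with 3 higher and 1 lower at an unadjusted p under 0.05 (12.3% and 11.9% of all genes) and a median difference near 0. LTF (1.77 ± 0.59, adjusted p = 0.0979) and LCN2 (1.19 ± 0.36, adjusted p = 0.0677) had the largest differences. Of 7 erythroid and platelet genes, 0 were called, with 1 higher and 1 lower at an unadjusted p under 0.05, and of 13 endothelial genes 1 was called higher, FLT1 (0.66 ± 0.15, adjusted p = 0.018), a call lost without Beagle 2. A log2 level above 7 in at least 2 samples was met by 2 of the 15 neutrophil and granulocyte genes and 1 of the 7 erythroid and platelet genes. The lack of calls in these 2 lists is therefore not evidence of unchanged expression. The summed intensity of the erythroid and platelet genes was 567 to 677 in glaucoma and 505 to 619 in healthy retinas, and that of the endothelial genes 3995 to 5505 and 3794 to 5423. When the dog with most pigment epithelium signal was left out of each group, 1 T cell and 8 pan-leukocyte probe sets were called, with medians of 0.49 and 1.08. Of 14 rod and 13 pigment epithelium markers, 0 were called by limma, with 2 rod markers lower and 2 pigment epithelium markers higher at an unadjusted p under 0.05, and of 10 Muller cell markers 4 were called higher.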

How the data were processed

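Neural retina of 5 dogs with glaucoma and 5 healthy dogs was profiled with 1 Affymetrix Canine genome 2.0 array per dog. The authors normalized the arrays with RMA and deposited the intensity values on a linear scale, of which the log2 was taken here. The 111 array controls were left out, and the remaining 42924 probe sets were compared with limma 3.58.1 (R 4.3.3) without a filter on expression, with Benjamini-Hochberg adjustment. Of these, 29254 had 1 gene symbol, 439 several and 13231 none. The code was tested on simulated data. The members, gene lists and tests were chosen with earlier results of these data known. Named were all member probe sets and, from each list, genes of smallest adjusted p and of largest difference that did not pass. Each listed gene was represented by its probe set of the highest mean. Alternatives were other filters, normalizations, variance models, tests, covariates, probe set choices and dogs left out. Array data have no read depth, and the number of arrays limits the precision. P-values measure the spread between dogs. SAM, the method of the study, was not run.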

Additional observations from a re-analysis of the deposited data

How the results depend on the processing

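The 5 T cell and 9 pan-leukocyte probe sets called higher were recounted under 27 alternatives, 2 of them chosen after seeing the data, and none was called lower under any. The T cell count was 2 under quantile normalization, with age as a covariate and without the Basset Hounds, and 3 under median centring and limma's trend and robust options. It was 1 under Student's t-test, which the study names for its volcano plot, after Benjamini-Hochberg. It was also 1 without the dog of each group with most pigment epithelium signal. Filters left fewer T cell probe sets to call. The expression filter of the methods left 3, of which 2 were called, and a mean log2 above 6 gave 3 calls. No T cell probe set that remained under these filters lost its call. With 1 or averaged probe sets per gene, 3 of the 5 T cell genes were called, namely CD2, CD3D and CD3E. Array weights gave 6 T cell calls. The pan-leukocyte count was 10 with age as a covariate and without the Shiba Inus, and 4 with 1 probe set and 5 with averaged probe sets per gene, of 5 genes each. The 3′/5′ ratio as a covariate left 0 and 4, namely PTPRC probe set 2, CD53 probe set 2 and LCP1 probe sets 1 and 2, whereas the ratio of a second control set left 5 and 9. The exact Wilcoxon test gave 0 and 0, its smallest adjusted p being 0.09 at this group size. With each dog left out, the T cell count ranged from 2 to 5. The pan-leukocyte median difference was 1.66 under the expression filter, which 5 of the 7 remaining probe sets passed through glaucomatous retinas alone. The T cell median was 0.42 under this filter, which 2 of the 3 remaining T cell probe sets passed through glaucomatous retinas alone. Passing in this way depends on the level in glaucoma, so that neither median is support for a difference. Differences that changed sign were those of CD4 probe set 2 (-0.037) and CD8A probe set 2 (-0.11) with age as a covariate, and CORO1A probe set 2 with age (-0.044), without the Shiba Inus (-0.0039) and with dogs left out (-0.010 to 0.080), none of which was called in any fit. The slope for age rested on the glaucomatous dogs, since all Beagles had the same age, and for the older Shiba Inu and the Dalmatian the label ages used here differ from those in the study's text. Deviations of dogs with the same replicate number correlated at r = -0.27 to 0.02. Dogs with different numbers were not compared, so that these values cannot decide whether the numbers pair the dogs. The replicate block gave 2 T cell and 9 pan-leukocyte calls. Causes of these changes were not tested.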
